A study of Caenorhabditis elegans with 12 samples.

Results

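Whole-animal RNA of C. elegans lacking a normal meiotic chromosome axis was set against RNA of C. elegans impaired in promoting meiotic DNA breaks. The comparison used 3 libraries of strain TY4986, which carries htp-3(y428), and 3 libraries of strain AV477, which carries dsb-2(me96), out of 12 libraries in all. Genes were kept where at least 3 of these 6 libraries reached 1 TPM (a share of reads scaled by gene length and by the library total), which left 11338 of 20222 listed genes. Both strains were day 1 adults kept at 20 °C on OP50 bacteria, RNA was extracted from whole animals and selected for poly(A), and the series text calls the 3 libraries of a strain biological replicates. N2, the laboratory wild type, and AV157, which carries spo-11(me44), were grown and sequenced in the same way with 3 libraries each. N2 values are given beside some results, and all 12 libraries shared 1 estimate of the spread. The labels give the allele of each strain and name no transgene or balancer chromosome, and they do not say how homozygous animals were obtained. Each mutation came from 1 strain, so an effect of htp-3 or dsb-2 cannot be told apart from other differences between the strains.

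HTP-3 is a HORMA-domain protein of the axis that holds the sister chromatids of meiotic chromosomes in loops, and it is needed for other axis proteins to load, for homologous chromosomes to pair and synapse, and for breaks to form. DSB-2 is a chromatin-associated protein that allows SPO-11, the enzyme that cuts DNA in meiosis, to act. Animals without DSB-2 make too few breaks, but their axes assemble and their chromosomes still pair and synapse. In both mutants chromosomes can reach oocytes without the crossovers that hold homologs together, and embryos often inherit the wrong number of chromosomes.

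The libraries held 36250956 to 38473833 mapped reads in htp-3 animals and 32422219 to 42527086 in dsb-2 animals. The htp-3 tables list 2746 to 3130 genes at 0, and the dsb-2 tables list 4075 to 4542. In dsb-2 replicate 1 the listed genes took 78.8% of the mapped reads, the lowest share of the 6 libraries, and in htp-3 replicate 3 they took 88.9%. The htp-3 libraries were not alike: on the axis that separated the strains (81.7% of the variance of the 6 libraries) htp-3 replicates 1 and 3 stood at 66.8 and 61.5, htp-3 replicate 2 at 28.5, and the dsb-2 libraries between -67.7 and -41.04. For germline and oocyte genes htp-3 replicate 2 was the htp-3 library nearest to dsb-2. Values without it are given where they move a count by over 1.5 times.

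The strains differed in most genes expressed. By limma with Benjamini-Hochberg adjustment over all genes tested, 8098 genes (71.4%) differed at an adjusted p under 0.05, of which 4910 genes (43.3%) were higher in htp-3 animals and 3188 (28.1%) were lower (shares of all genes tested). The htp-3 and dsb-2 libraries did not overlap for 7717 genes (68.1%). Large differences ran mostly upward: 2864 of the higher genes (25.3% of all genes tested) differed by at least 1 on the log2(TPM + 1) scale, against 767 of the lower genes (6.76%), and 315 against 8 differed by at least 2. Over all genes the median fold change was 0.23 (log2), with quartiles at -0.55 and 1.01. Without htp-3 replicate 2 there were 4895 higher and 3621 lower genes.

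The split between higher and lower genes depended on how libraries were scaled. Higher genes made up 60.6% of calls on the TPM scale, 44.4% under median-of-ratios scaling (3841 higher, 33.9%, and 4816 lower, 42.5%) and 72.8% under upper-quartile scaling (5817 higher, 51.3%, and 2175 lower, 19.2%). The median of all genes moved with it, to -0.12 and 0.51, so group medians below are to be read against 0.23. Counts of list members on the TPM scale are to be read against 43.3% higher and 28.1% lower of all genes tested. In bulk RNA a smaller number of cells of a type and less RNA in each cell cannot be told apart.

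Direction followed the level of a gene. With genes cut into 5 groups of equal size by mean level, the lowest group was at 0.581 to 3.35 TPM, and 73.1% of it was higher in htp-3 animals and 3.53% lower. In the next-to-highest group, 33.1 to 72.9 TPM, 16.19% were higher and 55.6% were lower. In the highest group 21.7% were higher and 48.5% lower. The inclusion rule admits genes through either strain, and 738 genes reached 1 TPM in all 3 htp-3 libraries and in no dsb-2 library, against 18 genes the other way round. Such genes were bound to lie higher in the strain that let them in. The higher counts of lists with low-level members are therefore partly set by the rule. At the edge of the rule, 854 genes reached 1 TPM in exactly 3 of the 6 libraries, with a median mean level of 1.19 TPM, and 591 left-out genes did so in exactly 2, with a median of 0.811 TPM.

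**Figure D1:**
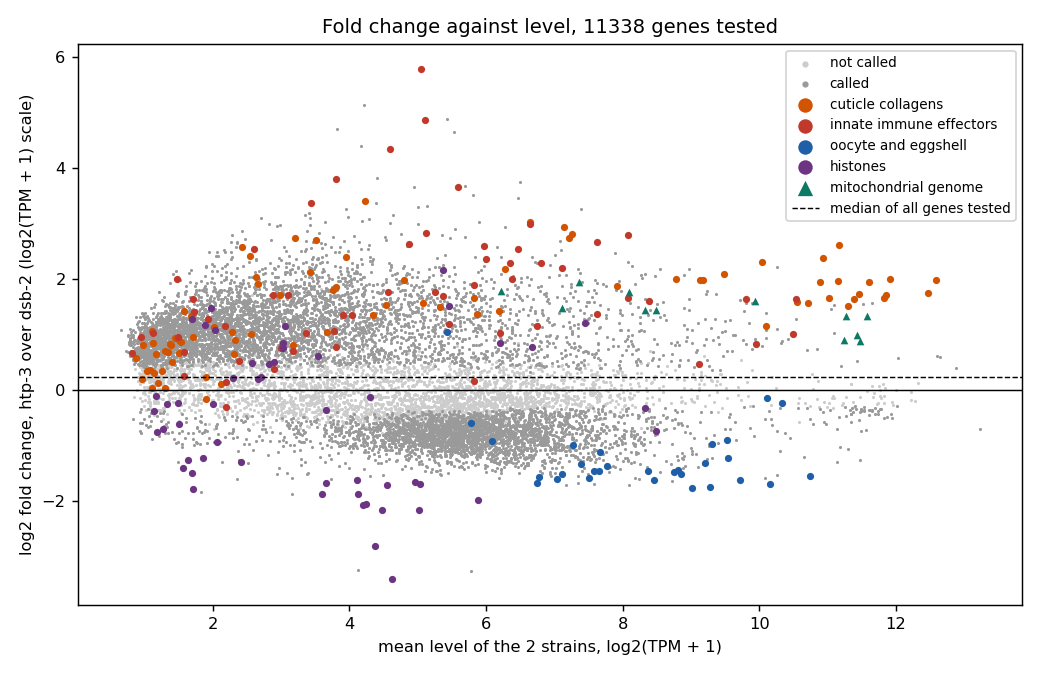
Each point is a gene tested; the horizontal axis is the mean level of both strains as log2(TPM + 1) and the vertical axis the log2 fold change of htp-3 over dsb-2. Genes of low level lie mostly above 0, oocyte and eggshell genes lie near -1.46, and the 12 mitochondrial genes lie above the dashed all-gene median of 0.23 (-0.12 under median-of-ratios scaling).

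The mutated genes differed between the strains in the way their labels name. The htp-3 transcript (WBGene00002034, chromosome I, 4827072 to 4829794, WBcel235) was at 6.67, 12.31 and 9.52 TPM in htp-3 animals, against 89.8, 89.6 and 114 TPM in dsb-2 animals. It was the gene with the second lowest fold change by the rule used to name genes (-3.26 ± 0.21, SE; limma adjusted p = 1.76e-07). The dsb-2 transcript (WBGene00194892, chromosome II, 14411095 to 14412218) was at 21.2, 42.1 and 35.2 TPM in htp-3 animals, against 17.4, 20.1 and 17.8 TPM in dsb-2 animals. Its libraries did not overlap (log2 fold change 0.75 ± 0.21, SE; limma adjusted p = 0.00594), but both strains lay under the N2 mean of 58.5 ± 3.64 TPM (SD, n = 3), and the call ended under median-of-ratios scaling (0.34, adjusted p = 0.114). The spo-11 transcript was at 27.1, 40.8 and 53.7 TPM in htp-3 animals and 32.6, 47.1 and 34.7 TPM in dsb-2 animals, and the libraries overlapped (0.05 ± 0.26, SE; limma adjusted p = 0.865).

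Genes of the chromosome axis and of cohesin, the ring that holds sister chromatids together, were lower in htp-3 animals for 10 of 14 members and higher for none. The 10 include the mutated gene htp-3 itself, and the median log2 fold change of the list was -0.84. The 3 meiotic kleisin genes, whose products close the ring, were lower. For coh-3 the levels were 12.5, 21.7 and 15.98 TPM in htp-3 animals, against 32.3, 36.8 and 46.4 TPM in dsb-2 animals (log2 fold change -1.17 ± 0.22, SE; limma adjusted p = 0.000366), and its close relative coh-4 had -0.94 ± 0.22. The meiotic kleisin gene rec-8 was at 19.1, 38.99 and 22.6 TPM in htp-3 animals, against 40.0, 48.5 and 75.02 TPM in dsb-2 animals, so htp-3 replicate 2 came close to the lowest dsb-2 library. Its log2 fold change was -1.01 ± 0.27 (SE; limma adjusted p = 0.00381). The ring subunit genes him-1, smc-3 and scc-3 had log2 fold changes of -1.0999 ± 0.22, -0.85 ± 0.25 and -1.16 ± 0.25, and wapl-1, which releases cohesin, had -0.84 ± 0.23 (SE).

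The other HORMA-domain axis genes had smaller fold changes than most cohesin genes. For him-3 the levels were 79.1, 117 and 118.6 TPM in htp-3 animals, against 149, 172 and 168 TPM in dsb-2 animals (log2 fold change -0.65 ± 0.17, SE; limma adjusted p = 0.00359). For htp-1 they were 117, 129 and 131 TPM in htp-3 animals, against 168, 166 and 174 TPM in dsb-2 animals. The htp-1 libraries did not overlap (-0.43 ± 0.13, SE; limma adjusted p = 0.009), yet its call ended under upper-quartile scaling (-0.11, adjusted p = 0.468), with RPKM in place of TPM (-0.25, adjusted p = 0.145), with the replicate number as a block (adjusted p = 0.0687) and in a fit of the 6 libraries alone (adjusted p = 0.0555). Not called were htp-2 (-0.36, limma adjusted p = 0.0521), the cohesin loader gene pqn-85 (-0.48, 0.305), evl-14 (-0.50, 0.279) and lab-1, which protects cohesin in the first division (0.12, 0.626).

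Of 11 break-formation genes 7 were lower and 1, dsb-2 itself, was higher, with a median log2 fold change of -0.90. The partner of DSB-2, dsb-1, was at 44.3, 68.1 and 53.2 TPM in htp-3 animals, against 100.4, 97.4 and 109 TPM in dsb-2 animals (-0.90 ± 0.18, SE; limma adjusted p = 0.000522). The third DSB factor, listed as C46A5.5 and now named dsb-3, was at 13.04, 19.7 and 19.8 TPM in htp-3 animals, against 25.7, 31.04 and 29.5 TPM in dsb-2 animals (-0.70 ± 0.20, SE; limma adjusted p = 0.00698). No library of either gene overlapped between the strains. The chromatin factors xnd-1 and him-17 fell by 1.37 and 1.22, rec-1 by 1.02, the end-processing nuclease gene mre-11 by 1.15 and the glycohydrolase gene parg-1 by 1.06 on the log2 scale. Not called were him-5, which promotes breaks on the X chromosome (-0.26, limma adjusted p = 0.252), rad-50 (-0.35, 0.524) and spo-11.

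Other groups of meiotic genes also fell. Of 24 synaptonemal complex and crossover genes 16 were lower and none higher (median -0.67), of 16 pairing and meiotic signalling genes all 16 were lower (median -0.99), and of 20 recombinational repair genes 18 were lower and none higher (median -0.88). The cyclin-like gene cosa-1, which marks crossover sites, was at 9.83, 19.4 and 13.2 TPM in htp-3 animals, against 38.2, 36.2 and 40.6 TPM in dsb-2 animals (log2 fold change -1.42 ± 0.22, SE; limma adjusted p = 8.8e-05). The RING finger gene listed as D1081.9, now named zhp-2, fell by 1.46 and the BARD1 homolog gene brd-1 by 1.33 on the log2 scale. The nuclease gene xpf-1 fell by 1.1007. Among pairing genes sun-1, which bridges the nuclear envelope to chromosomes, was at 46.9, 81.6 and 62.3 TPM in htp-3 animals, against 135, 137 and 155 TPM in dsb-2 animals (-1.18 ± 0.18, SE; limma adjusted p = 8.08e-05). The polo kinase gene plk-2 fell by 1.32, the Aurora kinase gene air-2 by 1.06 and hal-2, needed for homologs to align, by 0.99. In repair, dna-2 (helicase and nuclease) fell by 1.54, rad-54 by 1.05, rpa-1 (single-strand binding) by 0.89 and smc-5 by 0.85. These 12 genes have the 4 smallest p of each list, and the htp-3 libraries of all 12 lay under the dsb-2 libraries. Over whole lists libraries did not overlap for 15 of 24, 13 of 16 and 16 of 20 genes, against 68.1% of all genes tested. Summed levels of these, the axis and the break-formation lists were also lower in every spo-11 library than in any dsb-2 or N2 library. The lower levels were therefore not particular to htp-3 animals.

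Of 19 DNA damage checkpoint and apoptosis genes 16 were lower and 1 higher (median -0.97), and none was higher without htp-3 replicate 2, htp-3 replicate 3 or dsb-2 replicate 1. The caspase gene ced-3, which executes germline apoptosis, was at 35.5, 74.0 and 45.9 TPM in htp-3 animals, against 116, 131 and 158 TPM in dsb-2 animals (log2 fold change -1.42 ± 0.22, SE; limma adjusted p = 9.39e-05). Its inhibitor gene ced-9, a Bcl-2 homolog, was also lower, at 57.8, 81.4 and 67.0 TPM in htp-3 animals, against 145, 120 and 146 TPM in dsb-2 animals (-0.99 ± 0.16, SE; limma adjusted p = 0.000133). The checkpoint clamp-loader gene hpr-17 fell by 1.13. The summed level of the checkpoint and apoptosis list was 679, 1248 and 845 TPM in htp-3 animals. It was also low in the spo-11 strain, at 685, 778 and 815 TPM, against 1517, 1509 and 1606 TPM in N2. Genes that clear apoptotic corpses fell in 9 of 13 tested members and rose in none (median -0.58, or 5 lower under upper-quartile scaling), including the adaptor gene ced-2 (-1.097 ± 0.16) and the exchange-factor gene ced-5 (-1.11 ± 0.25, SE).

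Germline and oocyte genes had the lowest group medians. Germline stem cell and P granule genes, which hold the stem cell pool and the RNA granules of germ cells, fell in 20 of 25 tested members and rose in none (median -1.18). The Notch target gene lst-1 of the stem cell niche was at 36.7, 60.04 and 43.7 TPM in htp-3 animals, against 105, 85.5 and 128 TPM in dsb-2 animals. The translational repressor gene gld-1 was at 245, 485 and 274 TPM in htp-3 animals, against 702, 762 and 1004 TPM in dsb-2 animals. In both the htp-3 libraries lay under all dsb-2 libraries, with log2 fold changes of -1.18 ± 0.19 and -1.35 ± 0.23 (SE; limma adjusted p = 0.000149 and 0.000199). The P granule genes deps-1 and car-1 fell by 1.31 and 1.54 and the RNA-binding gene mex-3 by 1.23. The summed level of the list was 2029, 4289 and 2496 TPM in htp-3 animals. It was also low in the spo-11 strain, at 1898, 2462 and 2455 TPM, against 4902, 5391 and 5582 TPM in N2.

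Oocyte and eggshell genes fell in 26 of 30 tested members and rose in 1, with a median log2 fold change of -1.46, and their summed level was 0.660% to 1.12% of all TPM in htp-3 libraries against 1.63% to 2.27% in dsb-2 libraries. The Pumilio gene puf-5, a translational repressor in oocytes, was at 191, 424 and 260 TPM in htp-3 animals, against 980, 737 and 1134 TPM in dsb-2 animals (log2 fold change -1.76 ± 0.23, SE; limma adjusted p = 3.63e-05). The eggshell proteoglycan gene cpg-2 was at 618, 1228 and 818 TPM in htp-3 animals, against 2626, 2178 and 2775 TPM in dsb-2 animals (-1.56 ± 0.19, SE; limma adjusted p = 2.31e-05). The egg-activation genes egg-4 and egg-5 fell by 1.61 and 1.60; they are near-identical, so reads could be split between them. In dsb-2 animals puf-5 and cpg-2 were at 950 ± 201 and 2526 ± 310.5 TPM, against 738 ± 78.9 and 1924 ± 219 TPM in N2 (SD, n = 3 each).

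Only 10 of 24 early embryo genes passed the level rule, 5 higher and 4 lower. The maternally loaded pie-1, a germline fate regulator, was at 48.1, 83.9 and 54.3 TPM in htp-3 animals, against 164.2, 130 and 201 TPM in dsb-2 animals (log2 fold change -1.42 ± 0.20, SE; limma adjusted p = 6.24e-05). Genes that specify tissues, which adult organs also use, went both ways. The foregut factor pha-4 rose by 1.14, the muscle factor hlh-1 by 1.02 and the Wnt gene cwn-1 by 1.299. No dsb-2 library of the 3 genes was above 2.22 TPM. All dsb-2 libraries of hlh-1 were under 1 TPM, so it passed the level rule through htp-3 libraries alone. The epithelial factor lin-26, also on the list, fell by 1.07.

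The 6 vitellogenins, yolk protein precursors made in the intestine, did not move as a group. By limma vit-2 and vit-6 were higher and vit-3 was lower (median -0.15, or 0.18 under upper-quartile scaling). Under median-of-ratios scaling none was higher and 3 were lower (median -0.57), and without htp-3 replicate 2 none was higher and 2 were lower. For vit-2 the levels were 8242, 9125 and 5388 TPM in htp-3 animals and 4202, 5600 and 4796 TPM in dsb-2 animals (log2 fold change 0.61 ± 0.19, SE; limma adjusted p = 0.0099). For vit-3 they were 874, 1287 and 808 TPM in htp-3 animals, against 1653, 2136 and 1581 TPM in dsb-2 animals (-0.87 ± 0.27, SE; limma adjusted p = 0.0106). The call of vit-2 ended under median-of-ratios scaling (0.19) and without htp-3 replicate 1 (0.54) or htp-3 replicate 2 (0.46), and that of vit-3 under upper-quartile scaling (-0.55). The call of vit-6 (0.59) ended under several alternatives, among them median-of-ratios scaling (0.17) and leaving out htp-3 replicate 1 (0.52), htp-3 replicate 2 (0.41) or dsb-2 replicate 1 (0.42). For vit-4 the fold change was -0.58 (limma adjusted p = 0.089), and it gained a lower call under median-of-ratios scaling (-1.0016), without htp-3 replicate 2 (-0.77), in the fit of the 6 libraries alone (adjusted p = 0.0228) and with the replicate block (adjusted p = 0.00907).

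Major sperm protein genes, which encode the motility protein of sperm, rose in 26 of 28 tested members and fell in 1 (median 1.86), from low levels. Their summed level was 536, 212 and 739 TPM in htp-3 animals, against 108, 205 and 49.2 TPM in dsb-2 animals, so htp-3 replicate 2 stood beside dsb-2 replicate 2 and the other libraries stood apart. In N2 the sum was 54.2, 120 and 337 TPM. This range holds htp-3 replicate 2 and dsb-2 replicates 1 and 2. Above it lay htp-3 replicates 1 and 3, and below it dsb-2 replicate 3. The spo-11 strain was far above all of these, with sums of 3794.5, 3930.8 and 7022.3 TPM. For msp-78 the levels were 18.8, 9.54 and 32.3 TPM in htp-3 animals, against 2.44, 5.51 and 1.57 TPM in dsb-2 animals (log2 fold change 2.31 ± 0.53, SE; limma adjusted p = 0.00158). These genes are near-identical and uncertain as single genes. The exception was msp-40 (-1.84 ± 0.48), at 0.475 ± 0.343 TPM in htp-3 animals and 4.65 ± 2.47 TPM in dsb-2 animals (SD, n = 3 each), whose call ended with a pseudocount of 5 (adjusted p = 0.0526).

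Of 43 other sperm genes 21 passed the level rule, 12 higher and 4 lower. The sperm peptide gene nspd-1 rose by 2.65 ± 0.59 on the log2 scale. The 4 lower ones included genes that act before sperm are made: spe-44, a transcription factor of spermatogenesis, was at 9.48, 13.7 and 10.4 TPM in htp-3 animals, against 28.7, 24.1 and 32.5 TPM in dsb-2 animals (-1.27 ± 0.21, SE; limma adjusted p = 0.000147). The sperm fate gene fog-1 fell by 1.00 and the trafficking gene spe-39 by 1.15. Of 19 markers of male soma found in the tables only mab-5 and nlp-8 passed the level rule, both higher, at 2.28 ± 0.493 and 7.72 ± 2.40 TPM in htp-3 animals against 0.934 ± 0.299 and 1.75 ± 0.248 TPM in dsb-2 animals (SD, n = 3 each), and 2 of the 19 were listed at 0 in all 6 libraries.

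**Figure D2:**
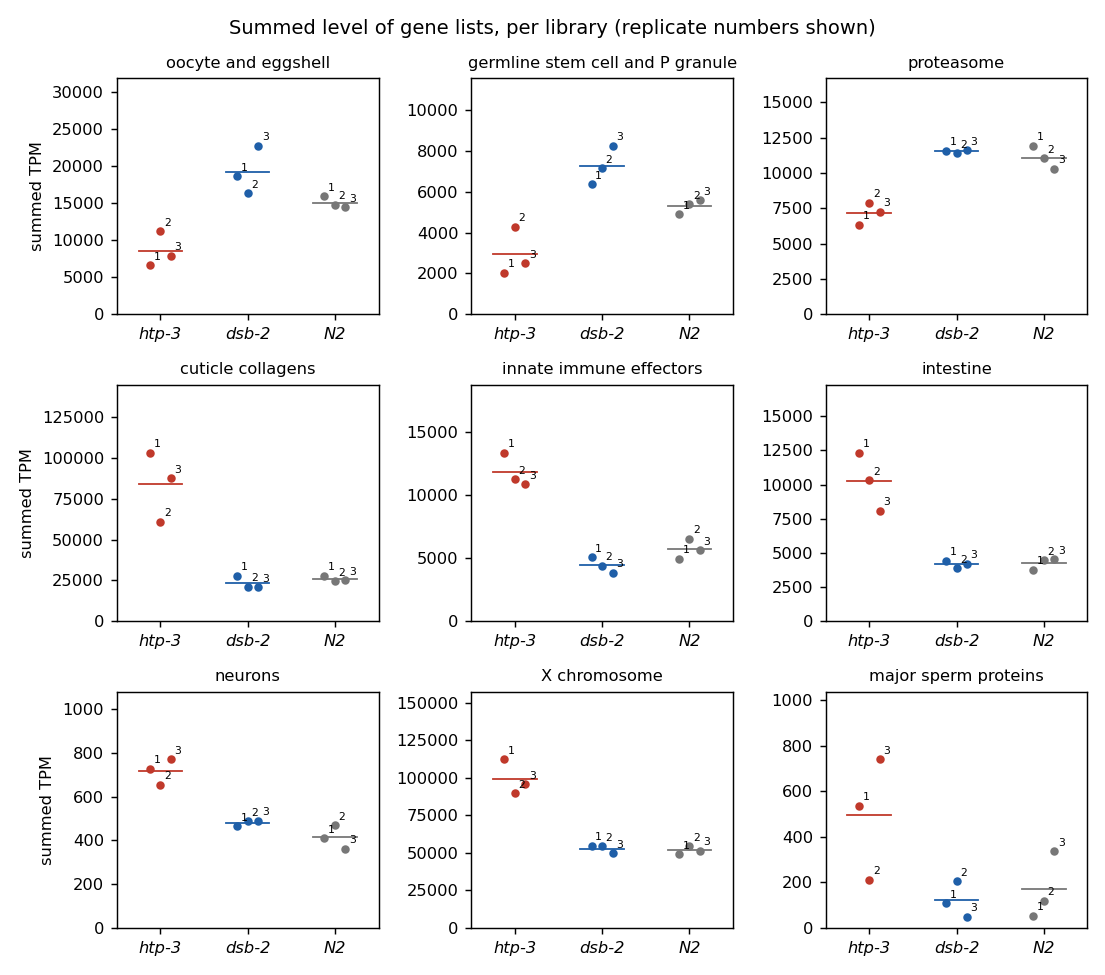
Summed TPM of 9 gene lists in each library of htp-3, dsb-2 and N2 animals, with the replicate number at each point and a line at each mean. For oocyte, germline and proteasome genes htp-3 replicate 2 is the htp-3 library nearest to dsb-2, and collagens, immune, intestine, neuron and X chromosome genes have all htp-3 libraries above all dsb-2 libraries.

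Somatic tissue markers were mostly higher in htp-3 animals. Intestine markers rose in 17 of 22 tested members and fell in none (median 1.13), muscle markers for 24 of 29 with 1 lower (median 0.95), neuron markers for 20 of 23 with none lower (median 1.46) and hypodermis and seam markers for 8 of 15 with 3 lower (median 0.76). Without htp-3 replicate 2 or dsb-2 replicate 1 there were 2 lower muscle markers. Under median-of-ratios scaling 14 muscle markers were higher and 2 lower, and the counts were 14 higher and none lower for intestine, 18 and 2 for neurons, and 6 and 5 for hypodermis and seam. Markers of the somatic gonad sheath and spermatheca went both ways, with 10 of 20 higher and 7 lower (median 0.30, or -0.05 under median-of-ratios scaling).

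In the intestine the filament gene ifb-2 was at 149, 136 and 121 TPM in htp-3 animals, against 41.2, 44.7 and 37.5 TPM in dsb-2 animals (log2 fold change 1.69 ± 0.20, SE; limma adjusted p = 1.32e-05). The proton pump gene vha-6 of the gut brush border rose by 1.59 and the transporter gene pgp-1 by 2.35. In muscle the troponin T gene mup-2 was at 454, 303 and 340 TPM in htp-3 animals, against 122, 174 and 133 TPM in dsb-2 animals (1.35 ± 0.22, SE; limma adjusted p = 0.000131), and the myosin light chain gene mlc-3 rose by 1.26. In neurons sbt-1, a chaperone of neuropeptide processing, was at 74.7, 47.2 and 72.6 TPM in htp-3 animals, against 16.203, 15.7 and 14.6 TPM in dsb-2 animals (1.97 ± 0.21, SE; limma adjusted p = 6.95e-06). The neuropeptide gene nlp-21 rose by 2.17 and the synaptotagmin gene snt-1 by 1.43. In N2 the means of ifb-2, mup-2 and sbt-1 were 35.6 ± 9.12, 124 ± 36.8 and 15.1 ± 2.69 TPM (SD, n = 3), near those of dsb-2 animals. In the spo-11 strain they were 249 ± 43.5, 456 ± 50.7 and 148 ± 27.6 TPM (SD, n = 3), above the htp-3 means. The rise of these genes was therefore not particular to htp-3 animals.

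In the hypodermis the hedgehog-related gene grd-3 and the GATA factor gene elt-3 rose by 1.22 and 1.28, while lin-26, an epithelial factor, fell by 1.07. Among gonad sheath and spermatheca genes plc-1, lfe-2 and ipp-5, which encode enzymes of inositol phosphate metabolism, rose by 1.04, 1.11 and 1.11. The sheath homeobox gene ceh-18 rose by 1.03, from 1.68 ± 0.298 TPM in dsb-2 animals (SD, n = 3). These gonad sheath and spermatheca genes were named for their small p, and they do not stand for the whole list. Of its 20 tested members 10 were higher and 7 lower, and the lowest log2 fold change was -1.39.

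Cuticle collagens, the structural proteins of the outer coat, rose in 62 of 84 tested members and fell in none, with a median log2 fold change of 1.52. Their summed level was 103410, 61016 and 87662 TPM in htp-3 animals, against 27880, 20998 and 20703 TPM in dsb-2 animals, or 6.10% to 10.3% against 2.07% to 2.79% of all TPM. No library overlapped between the strains, and the N2 sums were 27749, 24637 and 25234 TPM. The spo-11 sums, 44464, 51585 and 52228 TPM, lay between those of dsb-2 and htp-3 animals. The highest fold change was that of col-147, at 27.1, 18.5 and 55.1 TPM in htp-3 animals, against 1.298, 3.03 and 1.78 TPM in dsb-2 animals (3.41 ± 0.51, SE; limma adjusted p = 7.55e-05). Next were col-81 (3.02 ± 0.64) and col-139 (2.94 ± 0.61), both with N2 means between those of the mutants, at 61.9 ± 55.4 and 79.4 ± 66.2 TPM (SD, n = 3). Many collagens are similar in sequence, and 93 listed collagens were under the level rule.

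The 10 highest genes were led by dod-21 (WBGene00007873, chromosome IV, 12936738 to 12937988), named for lying downstream of the insulin pathway factor DAF-16. It was at 46.6, 78.0 and 67.4 TPM in htp-3 animals, against 0, 0.373 and 0.146 TPM in dsb-2 animals (log2 fold change 5.77 ± 0.26, SE; limma adjusted p = 2.2e-09). Its neighbour C32H11.9 (12935011 to 12936271) was at 21.8, 29.9 and 27.1 TPM in htp-3 animals, listed at 0 in dsb-2 replicates 2 and 3 and at 0.114 TPM in dsb-2 replicate 1. All dsb-2 libraries of these genes were under 1 TPM, so they passed the level rule through htp-3 libraries alone and were bound to lie higher there. The htp-3 libraries of both genes lay above all dsb-2 and N2 libraries, with N2 means of 0.201 ± 0.115 and 0 TPM. The spo-11 strain was also above both, at 17.5 to 34.2 TPM for dod-21 and 11.93 to 13.5 TPM for C32H11.9.

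The second of the 10, dpy-20 (WBGene00001079, chromosome IV, 11696443 to 11699895), encodes a zinc finger protein needed for normal body shape. It was at 28.6, 37.9 and 38.8 TPM in htp-3 animals, against 0.0504, 0 and 0.0192 TPM in dsb-2 animals (5.13 ± 0.15, SE; limma adjusted p = 1.87e-11). In N2 it was at 0.0519 ± 0.0452 TPM (SD, n = 3). All its dsb-2 libraries were under 1 TPM, so it passed the level rule through htp-3 libraries alone and was bound to lie higher there. Its p, the smallest of all genes tested, is to be read with that limit. The labels name no transgene in TY4986, and transcripts of the dpy-20 locus and of any extra copy of the gene cannot be told apart in these tables.

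Of the other 8, dct-17 was at 77.1, 64.1 and 55.8 TPM in htp-3 animals, against 0.961, 1.402 and 1.52 TPM in dsb-2 animals (4.86 ± 0.23, SE; limma adjusted p = 3.4e-09). The C-type lectin genes clec-169, clec-70 and clec-86, of a family that includes secreted immune proteins, rose by 4.39, 4.34 and 3.81. The cation ATPase gene catp-3 rose by 3.81, and B0024.4 and Y68A4A.13 by 4.88 and 4.64. For clec-169 the htp-3 libraries spread widely, at 12.8, 57.5 and 30.1 TPM, against 0.229, 0.723 and 0.283 TPM in dsb-2 animals, but all lay above them. With all dsb-2 libraries under 1 TPM, clec-169 also passed the level rule through htp-3 libraries alone.

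Genes of innate immune effectors rose in 51 of 59 tested members and fell in none, with a median log2 fold change of 1.63, the highest of the lists after the major sperm proteins. Their summed level was 13354, 11261 and 10833 TPM in htp-3 animals, against 5088, 4380 and 3830 TPM in dsb-2 animals. The lectin gene clec-67 was at 18.4, 19.4 and 18.5 TPM in htp-3 animals, against 1.25, 0.723 and 0.778 TPM in dsb-2 animals (3.37 ± 0.23, SE; limma adjusted p = 2.08e-07). Over the whole C-type lectin family 57 of 73 tested members were higher and 4 lower (median 1.29), and 171 were under the level rule. The lower ones included clec-87, clec-91 and clec-88, at means of 809, 182 and 204 TPM in htp-3 animals and 1713, 322 and 351 TPM in dsb-2 animals.

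Genes of the intracellular pathogen response, a programme induced by microsporidia and virus, rose in 14 of 16 tested members and fell in 1 (median 1.28). Another 15 members were under the level rule. They included the ubiquitin ligase partner genes skr-3, skr-4 and skr-5. For skr-5 the levels were 19.7, 7.12 and 7.85 TPM in htp-3 animals, against 0.174, 1.27 and 0.133 TPM in dsb-2 animals (2.98 ± 0.31, SE; limma adjusted p = 5.57e-06). The skr-3 gene rose by 1.78, skr-4 by 1.92 and pals-39 by 2.23. All dsb-2 libraries of pals-39 were under 1 TPM, so it passed the level rule through htp-3 libraries alone.

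Xenobiotic metabolism genes (cytochromes P450 and the transferases of detoxification) rose in 86 of 117 tested members and fell in 6, or 13 lower under median-of-ratios scaling (median 0.90). The P450 gene cyp-13A5 was at 26.1, 56.1 and 29.6 TPM in htp-3 animals, against 1.65, 4.90 and 1.76 TPM in dsb-2 animals (3.37 ± 0.37, SE; limma adjusted p = 8.72e-06), and gst-24 and ugt-18 rose by 2.76 and 2.52. Those with the lowest fold changes were cyp-31A3, cyp-31A2 and cyp-31A5 (-1.44, -1.18 and -1.18), near-identical genes of which cyp-31A2 and cyp-31A3 are known for a role in making the eggshell. F-box genes, substrate adaptors of ubiquitin ligases, rose in 64 of 106 tested members and fell in 9, or 25 lower under median-of-ratios scaling (median 0.83). A further 227 F-box genes were under the level rule. Among those tested fbxa-157 rose by 2.35 and fbxb-7 fell by 1.60. All dsb-2 libraries of fbxa-157 and of ugt-18 were under 1 TPM, so both passed the level rule through htp-3 libraries alone.

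Insulin pathway genes and DAF-16 targets rose in 11 of 23 tested members and fell in 4 (median 0.56); the higher share, 47.8%, was near the 43.3% of all genes tested. The insulin-like peptide gene ins-7 was at 97.5, 33.2 and 37.2 TPM in htp-3 animals, against 2.94, 7.63 and 0.914 TPM in dsb-2 animals (log2 fold change 3.65 ± 0.46, SE; limma adjusted p = 2.37e-05), while the PI3 kinase gene age-1 fell by 1.25. Lipid metabolism genes rose in 31 of 55 tested members and fell in 5 (median 0.66), or 23 and 12 under median-of-ratios scaling, with 3 lower when replicate 1 or 3 of htp-3, or replicate 2 or 3 of dsb-2, was left out. The fatty acid binding gene lbp-5 was among the members with the smallest p. For lbp-5 the levels were 140, 101 and 133 TPM in htp-3 animals, against 21.1, 27.4 and 20.1 TPM in dsb-2 animals (2.39 ± 0.20, SE; limma adjusted p = 1.16e-06), and lbp-7 and the carnitine transferase gene cpt-4 rose by 2.73 and 2.57.

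Heat shock genes went both ways. Of 24 tested, 14 were higher and 9 lower (median 0.88). Without htp-3 replicate 2 there were 9 higher, without dsb-2 replicate 3 there were 7 higher, and without htp-3 replicate 1 there were 5 lower. The small heat shock genes hsp-17 and hsp-12.1 rose by 1.66 and 1.49, from means of 27.2 and 2.68 TPM in dsb-2 animals. The abundant constitutive chaperone gene hsp-1 was at 1385, 2106 and 1461 TPM in htp-3 animals, against 3414, 3313 and 3442 TPM in dsb-2 animals (-1.06 ± 0.15, SE; limma adjusted p = 6.13e-05). The small heat shock gene sip-1, known from oocytes and embryos, was at 993, 1624 and 1293 TPM in htp-3 animals, against 3344, 2656 and 3553 TPM in dsb-2 animals (-1.31 ± 0.17, SE; limma adjusted p = 3.21e-05). Both had all htp-3 libraries under all dsb-2 libraries. The summed level of the list was lower in htp-3 animals, at 0.58 of that in dsb-2 animals, while its median fold change was above 0.

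Endoplasmic reticulum and mitochondrial stress genes rose in 9 of 30 tested members and fell in 12 (median -0.23), or 1 and 17 under median-of-ratios scaling and 13 and 5 under upper-quartile scaling (median 0.08). Leaving out htp-3 replicate 1 gave 7 lower, as did leaving out dsb-2 replicate 2 or 3. The chaperone gene pdi-1 and the ubiquitin ligase gene sel-11 fell by 0.79 and 0.81, and the mitochondrial stress factor dve-1 rose by 1.48. Oxidative stress genes rose in 11 of 28 tested members and fell in 7 (median 0.30). The genes rose in 7 and fell in 11 under median-of-ratios scaling (median -0.11), and rose in 16 and fell in 1 under upper-quartile scaling. The glutathione peroxidase gene gpx-5 rose by 1.52 and the extracellular dismutase gene sod-4 by 1.26. The lower count was 3 without dsb-2 replicate 2, and 4 without htp-3 replicate 1 or either of the other dsb-2 libraries.

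Proteasome subunits, which degrade proteins marked with ubiquitin, fell in 30 of 33 tested members and rose in none (median -0.75). The genes rpn-1 and rpn-2, of the base of the regulatory particle, fell by 1.26 and 1.197 and the ATPase gene rpt-5 by 1.00. For rpn-1 the levels were 97.9, 164.3 and 108 TPM in htp-3 animals, against 263, 272 and 340 TPM in dsb-2 animals. The direction of the ribosomal proteins rested on scaling: 6 of 78 were higher and 37 lower (median -0.30) on the TPM scale, 2 and 66 under median-of-ratios scaling, and 6 and 0 under upper-quartile scaling (median 0.02). Without htp-3 replicate 1 or 3 there were 17 lower and 2 higher, without dsb-2 replicate 1 there were 16 lower, and without dsb-2 replicate 3 there were 23 lower and 2 higher. Their share of all TPM was 20.2% to 20.4% in htp-3 animals, against 22.4% to 25.8% in dsb-2 animals. The respiratory chain genes likewise had 16 of 66 higher and 7 lower (median 0.15), with 7 and 26 under median-of-ratios scaling (median -0.27) and 40 and 4 under upper-quartile scaling. The list holds 1 gene of the mitochondrial genome, atp-6, and of the 65 nuclear members 15 were higher and 7 lower.

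All 12 genes of the mitochondrial genome were higher in htp-3 animals, with a median log2 fold change of 1.44, and the median was 1.02 and 1.76 under median-of-ratios and upper-quartile scaling. Their summed level was 24928, 16311 and 24235 TPM in htp-3 animals, against 9714, 12455 and 7534 TPM in dsb-2 animals and 10840, 15078 and 11824 TPM in N2. In the spo-11 strain it was 34811, 36715 and 33535 TPM. The ATP synthase gene atp-6 was at 5394, 2931 and 4926 TPM in htp-3 animals, against 1843, 1814 and 1450 TPM in dsb-2 animals (1.33 ± 0.19, SE; limma adjusted p = 5.78e-05). The fold change of cytochrome b, ctb-1, was 0.89 ± 0.18, and that of the complex I gene nduo-6 was 1.94 ± 0.35 (SE). The calls of ctc-3 (adjusted p = 0.0899) and nduo-3 (adjusted p = 0.0544) ended under median-of-ratios scaling, and that of nduo-3 also without htp-3 replicate 1 (adjusted p = 0.0932) or dsb-2 replicate 3 (adjusted p = 0.0534).

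Histone genes supplied 8 of the 10 genes with the lowest fold changes. They fell in 24 of 52 tested members and rose in 10 (median -0.38). The messages of replication-dependent histones, made in dividing cells, are not polyadenylated as a rule, so a poly(A) library captures them poorly, and near-identical copies make each gene uncertain. The H2B-type listing his-66 (WBGene00001940, chromosome IV, 11400311 to 11400812) was at 3.38, 0 and 9.49 TPM in htp-3 animals, against 69.6, 18.2 and 40.5 TPM in dsb-2 animals (log2 fold change -3.42 ± 0.63, SE; limma adjusted p = 0.000343). For his-68 the levels were 16.55, 29.5 and 23.1 TPM in htp-3 animals, against 102, 73.9 and 102 TPM in dsb-2 animals (-1.98 ± 0.22, SE; limma adjusted p = 9.88e-06). In both all htp-3 libraries lay under all dsb-2 libraries. Of the 10 higher histone genes, the linker histone gene his-24 and the replacement histone H3.3 gene his-71, both on the X chromosome, rose by 2.15 and 1.51, and his-19 on chromosome V, whose near-identical copies make it uncertain, rose by 1.48.

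The remaining gene among the 10 lowest was Y49E10.16 (WBGene00013035, chromosome III, 12430430 to 12433892), which has only a sequence name in the tables. It was at 2.49, 1.97 and 2.51 TPM in htp-3 animals, against 29.4, 31.3 and 30.7 TPM in dsb-2 animals (-3.25 ± 0.18, SE; limma adjusted p = 3.05e-08). Its N2 mean was 34.5 ± 5.78 TPM (SD, n = 3), and htp-3 animals lay far below both.

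**Figure D3:**
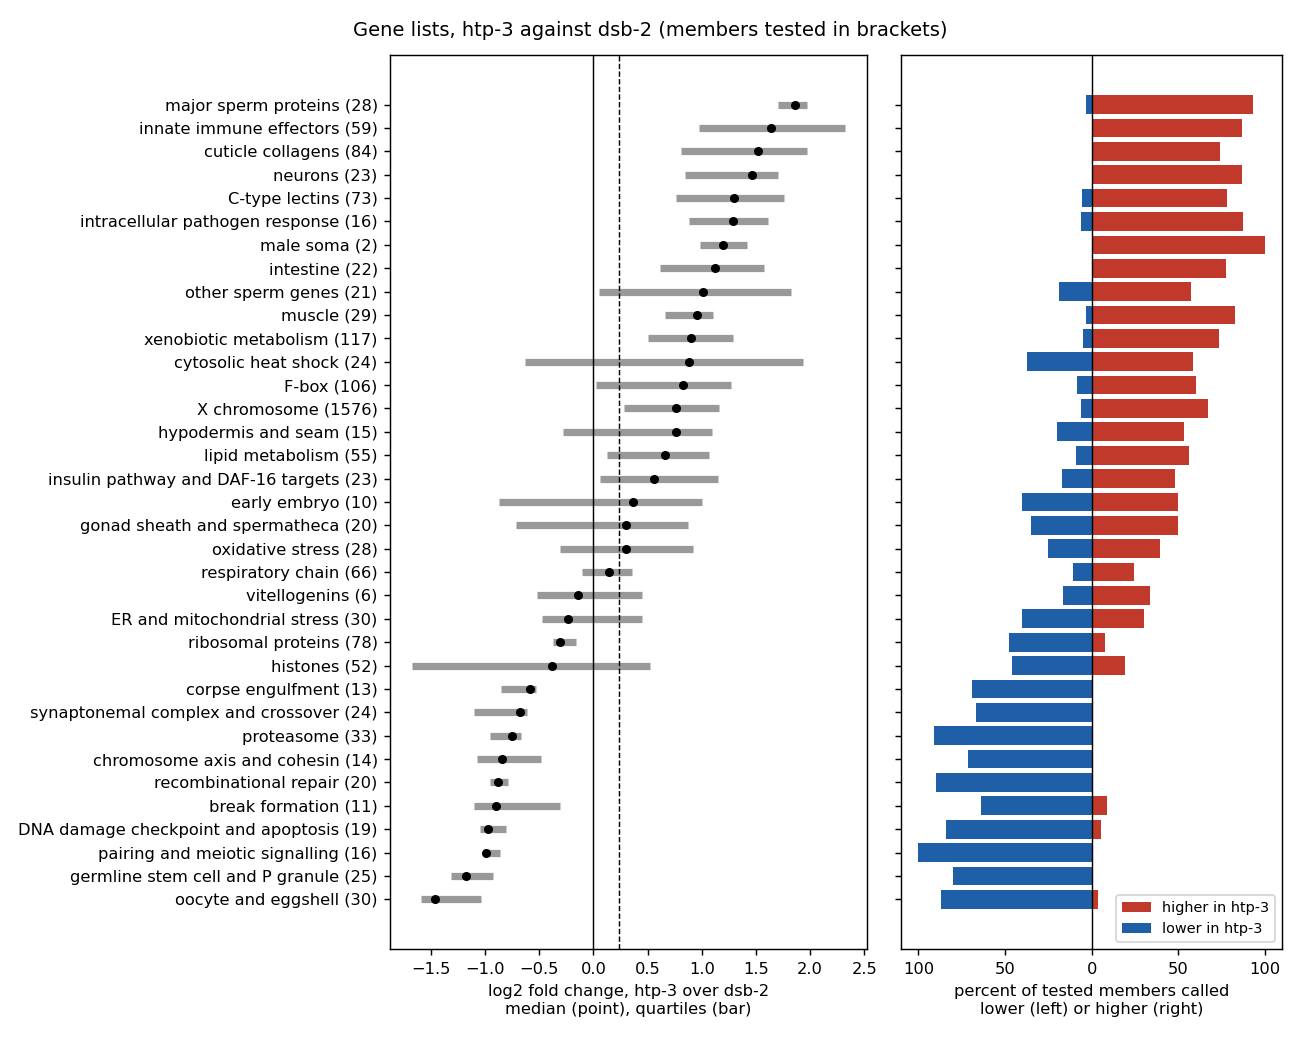
For each of 35 gene lists, the left panel shows the median and quartiles of the log2 fold change of htp-3 over dsb-2, with the all-gene median of 0.23 dashed (-0.12 under median-of-ratios scaling), and the right panel the percent of tested members called lower or higher. In 16 lists over 50% of the tested members were higher, in 10 over 50% were lower, and in 9 neither held. The medians of the gonad sheath, oxidative stress, respiratory chain, vitellogenin, ribosomal protein and endoplasmic reticulum lists change sign under 1 of the other scalings.

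Several housekeeping functions are encoded by paralog pairs, and members of 6 pairs, chosen after their values were seen, moved in opposite directions. For ribosomal protein L11, rpl-11.2 on the X chromosome was at 1591, 1076 and 1332 TPM in htp-3 animals, against 549, 419 and 386 TPM in dsb-2 animals (log2 fold change 1.56 ± 0.17, SE; limma adjusted p = 7.05e-06). Its partner rpl-11.1 on chromosome V was at 1890, 2434 and 2523 TPM in htp-3 animals, against 4140, 3709 and 3462 TPM in dsb-2 animals (-0.73 ± 0.13, SE; limma adjusted p = 0.00024). The other X-linked members rpl-25.1, ucr-2.1 (complex III), asb-2 (ATP synthase) and pab-2 (poly(A) binding) rose by 1.44, 1.17, 1.08 and 0.85, and their autosomal partners rpl-25.2, ucr-2.3, asb-1 and pab-1 fell by 0.70, 1.01, 0.69 and 0.39. In the translation factor 5A pair both members are autosomal, and iff-2 rose by 1.57 while iff-1 fell by 0.40. The lower member's call ended under upper-quartile scaling for rpl-11.1 (adjusted p = 0.0557), rpl-25.2 (0.14), iff-1 (0.762) and pab-1 (0.772), and those of iff-1 and pab-1 ended under several other alternatives too. For pab-1 the libraries of the strains overlapped. Leaving out 1 library ended the iff-1 call for htp-3 replicate 2 and dsb-2 replicates 1 and 3, and the pab-1 call for htp-3 replicates 1 and 3 and dsb-2 replicates 2 and 3. The pab-2 call ended under median-of-ratios scaling (adjusted p = 0.0506).

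Genes of the X chromosome, most of which are kept off in the germline, rose in 1056 of 1576 tested members (67.0%) and fell in 95 (6.03%), with a median log2 fold change of 0.76. Under median-of-ratios scaling the counts were 796 and 218, and the lower count was 53 without htp-3 replicate 1 and 63 without dsb-2 replicate 3. Their summed level was 112330, 89684 and 95848 TPM in htp-3 animals, against 54835, 54351 and 49618 TPM in dsb-2 animals, with no overlap. The spo-11 strain was also high, at 107330, 105710 and 98763 TPM. The acid sphingomyelinase gene asm-2 and F53A9.8 led after clec-86, with log2 fold changes of 3.09 ± 0.26 and 3.46 ± 0.34 (SE). Chromosome V, rich in lectin, F-box and other large families, was next, with 53.8% higher and 23.4% lower. Chromosomes I (564 of 1918 genes higher, 724 lower) and III (584 of 1900 higher, 703 lower) were the 2 on which lower calls outnumbered higher ones on the TPM scale. Chromosomes II and IV lay between, at 38.2% and 43.3% higher.

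**Figure D4:**
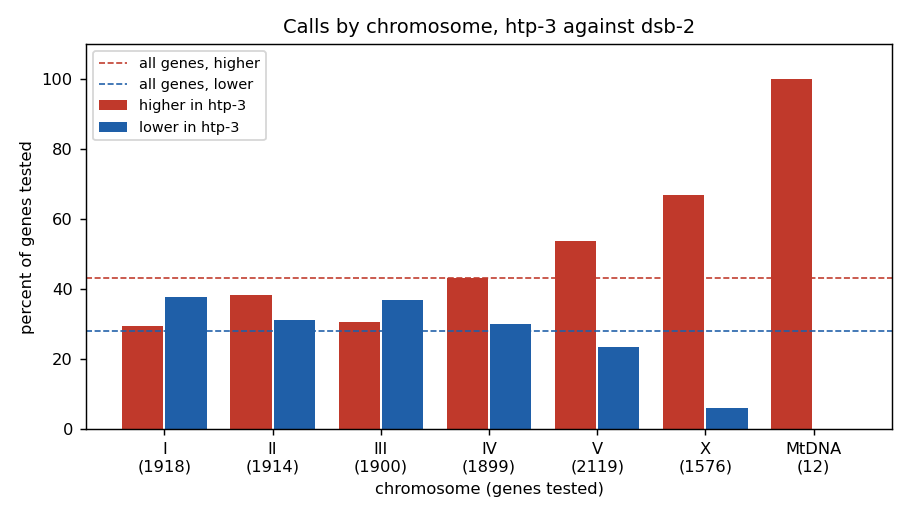
Percent of tested genes called higher or lower in htp-3 animals on each chromosome, with the number of genes tested in brackets and dashed lines at 43.3% and 28.1% for all genes. The X chromosome has 67.0% higher and 6.03% lower, and all 12 mitochondrial genes are higher.

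Local clusters stood out within chromosomes when genes were taken in 390 windows of 250000 bases with at least 10 genes tested, windows that were picked here by their values and so carry no test. On chromosome IV from 12750001 to 13000000, 27 of 35 genes were higher and 2 lower (median log2 fold change 1.46). It holds dod-21 and C32H11.9 with dod-24 and dod-22, and dod-24 was at 74.3, 87.4 and 100.5 TPM in htp-3 animals, against 2.31, 8.83 and 9.57 TPM in dsb-2 animals. On chromosome V from 19250001 to 19500000 all 20 genes were higher (median 1.23), the only window with every gene called that way. On chromosome IV from 11250001 to 11500000, 28 of 44 were lower, among them histone genes and cbd-1, an eggshell protein gene. The X chromosome also had a stretch that went the other way, from 1750001 to 2000000, where 10 of 13 were lower and none higher (median -0.86), among them the P granule gene meg-3 and the regulator genes rgs-8.1 and rgs-9.

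Gene families were also taken by name prefix. Of 88 prefixes with at least 10 genes tested, flp (FMRFamide-like neuropeptides) had all 29 genes higher, nlp (other neuropeptides) 41 of 42, ttr (transthyretin-like) 42 of 44, twk (potassium channels) 17 of 18, and asp (aspartyl proteases) 11 of 12. Higher calls were also made for 118 of 154 nhr genes (nuclear hormone receptors) and 18 of 20 vha genes (proton pump subunits). At the other end rpn (proteasome) had all 13 genes lower, npp (nuclear pore) 22 of 24, eif (translation initiation) 21 of 24 and cdc (cell division cycle) 12 of 14.

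A cluster on chromosome V from 2348215 to 2531174, in which genes occur as near-identical pairs, was mostly above N2 in both htp-3 and dsb-2 animals. Of its 18 genes tested 10 were lower in htp-3 than in dsb-2 animals and none was higher, and for 16 genes every htp-3 and every dsb-2 library lay above every N2 library. The means of the spo-11 strain were also above those of N2, except for C13B7.6 and its pair Y45G12C.16, where they were below. The rise over N2 was therefore not particular to htp-3 and dsb-2 animals. The lectin gene clec-209 was at 744, 694 and 518 TPM in htp-3 animals and 618, 786 and 381 TPM in dsb-2 animals, with overlapping libraries (log2 fold change 0.18 ± 0.30, SE; limma adjusted p = 0.603), against 87.8 ± 33.5 TPM in N2 (SD, n = 3). F56A4.3 was at 6.84, 7.10 and 11.4 TPM in htp-3 animals, against 29.8, 43.9 and 13.3 TPM in dsb-2 animals (-1.55 ± 0.34, SE; limma adjusted p = 0.00106). C13B7.6 was at 47.3, 66.8 and 51.04 TPM in htp-3 animals, against 133, 130 and 152 TPM in dsb-2 animals (-1.33 ± 0.16, SE; limma adjusted p = 1.89e-05), with an N2 mean of 58.9 ± 5.41 TPM (SD, n = 3). Because of the pairs the 18 genes are not 18 separate measurements.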

How the data were processed

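Poly(A)-selected RNA of whole day 1 adults was sequenced in 12 libraries, 3 per strain. Every library has a table of 20222 genes with RPKM (per kilobase of exon and mapped reads) and TPM values, both made by the authors, per the file headers. The submitters' processing notes name the build WBcel235. Aligner, counter and use of strand: not given in the sources used here, so reads of overlapping or antisense genes cannot be told apart. Depth was rebuilt from the authors' deposited RPKM, whose low values are multiples of what 1 read is worth. Of 18042 genes above 0 in 4 or more libraries, 18041 gave whole reads to within 0.05 reads. Among the htp-3 and dsb-2 libraries 1 read on a kilobase of exon is worth 0.0333 to 0.0437 TPM.

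A gene entered the test if 3 or more of the 6 htp-3 and dsb-2 libraries held 1 TPM of it. The test was limma 3.58.1 (R 4.3.3, mean-variance trend) on log2(TPM + 1), fitted to all 12 libraries with 1 mean per strain, two-sided, with Benjamini-Hochberg adjustment over 11338 genes and calls at an adjusted p under 0.05. Fold changes are htp-3 over dsb-2 on that scale, which understates changes of low genes. The reads rebuilt from RPKM were used in an alternative, limma-voom with trimmed-mean-of-M-values factors. Lists are described by counts and medians, with no test. The members, lists and rules were chosen with earlier results of these data known. Genes are named by a rule: the 3 mutated ones, the top 10 and bottom 10 called genes by fold change with separate libraries and at least 5 TPM in the higher strain, all axis and break-formation genes, and from each other list the 4 with the smallest p (in families the 3 highest and 3 lowest), less some that repeat a pattern; others are said to be chosen after their values were seen or belong to windows, name families or the chromosome V cluster described by value. Where nothing says how cultures were separated, p-values measure only the spread between these libraries. Libraries of a strain differed beyond sampling noise in every pair (chi-square per degree of freedom at least 65.0), and each counts as 1 replicate. The procedure was tested on simulated data.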

Additional observations from a re-analysis of the deposited data

How the results depend on the processing

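Of 3353 values of 198 named genes under the alternatives, 3247 kept their side of the threshold, 94 lost the call and 12 gained one. No value called in the main fit or in the alternative changed sign. Changes of sign of genes called in neither were not counted. Of the 198 genes 188 were called in the main fit, and most were picked by their p or fold change there. Their stability therefore does not speak for genes in general. The fold change cannot move in the fit of the 6 libraries alone, with the replicate block or with the fold threshold. The number of higher genes, 4910 in the report, was 2931 with a minimum of 5 TPM and 2864 with a log2 fold of at least 1; fewer genes, 8558, were tested at 5 TPM. The number of lower genes was 4816 under median-of-ratios scaling and 767 with a log2 fold of at least 1. Lists with over 50% of members higher, 16 in the report, numbered 8 without a filter and 7 with a log2 fold of at least 1, and lists with over 50% lower, 10 in the report, numbered 2 with that fold. The all-gene median was -0.12 under median-of-ratios scaling, 0.51 under upper-quartile scaling, -0.15 at 5 TPM and 0.36 with RPKM. The cause of these shifts was not tested. Leaving out 1 library at a time gave 4362 to 4898 higher and 2381 to 3621 lower genes, 14 to 16 and 10 to 11 such lists, and medians of 0.17 to 0.29. With the replicate number as a block there were 4720 higher and 2918 lower genes, but same-numbered libraries did not deviate together (r = 0.37, -0.17 and -0.43 across genes), and 2 of the 3 htp-3 libraries correlated best with another number, so the numbers were not taken as pairs. With 3 libraries a strain and values as low as 1 TPM, small changes of low genes could be missed.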
